A study of Rattus norvegicus with 20 samples.

Results

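The genes described here are called milk genes below. They encode the caseins Csn1s1, Csn2, Csn3, Csn1s2a and Csn1s2b and the whey proteins Wap and Lalba. The others encode the enzymes Xdh and Cel and the phosphate transporter Slc34a2. All 10 were chosen by name, and a probe was taken as theirs where its RefSeq accession on the array maps to the gene. Of the 10 genes, 9 had a probe by this rule, Slc34a2 had 2 probes, and Csn1s2a was not analysed here. All 9 passed the filter on dim probes and were tested among 36043 genes, where a probe with an accession but no symbol stands for a gene.

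Mammary adenocarcinomas and normal glands of female Sprague-Dawley (Jcl:SD) rats were measured on 20 one-colour Agilent arrays, 1 sample per array. Obesity-prone (OP) and obesity-resistant (OR) rats ate food with 45 kcal% fat and were told apart by their weight at 7 weeks of age, and lean controls (LC) ate a standard food with 10 kcal% fat. All 3 groups, the sources of the normal tissue included, received whole-body Cs-137 gamma rays at 7 weeks (4 Gy, at 0.5 Gy/min) and were watched for 30 weeks, so no sample came from an unirradiated rat. The 12 cancers were 6 OP, 3 OR and 3 LC, and the 8 normal tissues, of age-matched rats, were 3 OP, 2 OR and 3 LC. The cancers had been selected for uniform histology without necrosis or marked infiltration. Nothing states that each sample had its own donor rat, and the p-values below rest on the spread between samples, which may be partly technical. The labels give no oestrous stage, pregnancy or hormone level.

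Milk genes are switched on in the alveolar cells of the mammary epithelium. Prolactin binds its receptor (Prlr), the attached kinase JAK2 activates STAT5A and STAT5B, and these bind TTCNNNGAA sites in front of casein genes together with the glucocorticoid receptor. Full expression is known from late pregnancy and lactation, while the resting gland of a virgin rat holds lower and variable amounts of casein mRNA. Caseins assemble into micelles that carry calcium and phosphate, and kappa-casein (Csn3) keeps the micelles in suspension. Whey acidic protein (Wap) is a major whey protein of rodents, and alpha-lactalbumin (Lalba) is the regulatory subunit of lactose synthase.

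Because the site that STAT5 binds is known from casein promoters, the promoters of the 5 casein genes are shown (RefSeq, build GRCr8, from 250 bases before to 50 bases after the annotated start, 5′ to 3′ on the gene's strand). Capitals mark each TTCNNNGAA, a motif that reads the same on both strands. The windows are chr14:20638800-20639099 (minus strand) for Csn1s1, chr14:20601574-20601873 (plus strand) for Csn2, chr14:20574422-20574721 (minus strand) for Csn1s2a, chr14:20545569-20545868 (minus strand) for Csn1s2b and chr14:20439781-20440080 (minus strand) for Csn3.
Csn1s1: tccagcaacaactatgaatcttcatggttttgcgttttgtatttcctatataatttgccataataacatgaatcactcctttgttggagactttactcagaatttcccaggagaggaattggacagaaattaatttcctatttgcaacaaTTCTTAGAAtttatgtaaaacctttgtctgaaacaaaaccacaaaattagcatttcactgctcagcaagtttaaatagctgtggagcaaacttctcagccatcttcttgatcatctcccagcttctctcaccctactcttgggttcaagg
Csn2: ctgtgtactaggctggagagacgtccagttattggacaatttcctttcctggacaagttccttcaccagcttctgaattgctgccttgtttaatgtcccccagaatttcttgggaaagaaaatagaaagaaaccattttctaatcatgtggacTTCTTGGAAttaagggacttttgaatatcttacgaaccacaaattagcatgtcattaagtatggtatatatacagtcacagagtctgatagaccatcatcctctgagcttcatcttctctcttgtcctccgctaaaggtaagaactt
Csn1s2a: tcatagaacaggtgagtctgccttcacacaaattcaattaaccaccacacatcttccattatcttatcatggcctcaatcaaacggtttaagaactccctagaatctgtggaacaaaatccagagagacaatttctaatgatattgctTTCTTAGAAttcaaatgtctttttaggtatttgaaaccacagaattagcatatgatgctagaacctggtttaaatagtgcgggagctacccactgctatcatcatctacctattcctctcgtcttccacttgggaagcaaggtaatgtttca
Csn1s2b: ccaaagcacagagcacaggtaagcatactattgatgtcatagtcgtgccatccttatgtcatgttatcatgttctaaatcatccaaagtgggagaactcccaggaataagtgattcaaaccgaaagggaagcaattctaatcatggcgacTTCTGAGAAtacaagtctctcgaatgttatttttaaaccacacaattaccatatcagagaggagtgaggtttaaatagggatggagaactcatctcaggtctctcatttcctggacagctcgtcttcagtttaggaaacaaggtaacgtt
Csn3: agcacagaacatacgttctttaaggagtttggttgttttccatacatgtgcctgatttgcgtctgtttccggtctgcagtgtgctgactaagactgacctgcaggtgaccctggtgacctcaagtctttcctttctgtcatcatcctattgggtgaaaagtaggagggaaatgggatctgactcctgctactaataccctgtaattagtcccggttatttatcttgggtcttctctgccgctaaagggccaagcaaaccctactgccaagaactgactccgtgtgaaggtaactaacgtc
The match was TTCTTAGAA in Csn1s1, beginning 100 bases before the start, TTCTTGGAA in Csn2 at 97 bases, TTCTTAGAA in Csn1s2a at 102 bases and TTCTGAGAA in Csn1s2b at 100 bases. None of the promoters of Csn3, Wap, Lalba, Xdh, Cel and Slc34a2 held the motif in this window. Of 33469 rat promoters of the same length, 8.874% held it at least once. The string TTTAAATA, searched on both strands, was in the promoters of Csn1s1, Csn1s2a and Csn1s2b, 31 to 34 bases before the start, and in 1.864% of all promoters. TATAAA was in none of the 10 promoters, against 14.222% of all. These matches are descriptions of letters in a window and say nothing about binding in these samples.

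The 5 casein genes lie side by side on chromosome 14 in the RefSeq order Csn3, Csn1s2b, Csn1s2a, Csn2 and Csn1s1, with other genes between them. Wap and Slc34a2 are elsewhere on chromosome 14, Lalba on chromosome 7, Xdh on chromosome 6 and Cel on chromosome 3. Of the genes between the caseins with a named probe, the pseudogene Dzip1-ps1 was the only one tested, and its log2 level fell by 0.33 in cancers against normal tissue (SE 0.0543, limma adjusted p = 6.39e-05).

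Levels below are log2 brightness after background correction and quantile normalization, so 1 unit is a doubling, and levels of different genes are not set against each other because probes differ in sensitivity. The probes of Csn1s1, Csn2, Csn3, Wap, Lalba, Xdh and Cel were well above background on all 20 arrays, and no spot was saturated. On cancer arrays 61.2% to 79.3% of all probes were well above background, against 87.7% to 97.6% on normal tissue arrays. Luminal epithelial markers averaged 13.04 to 13.99 on cancer arrays and 10.07 to 12.42 on normal tissue arrays, with LC normal 1 lowest. In whole tissue, fewer cells that express a gene and less RNA of it per cell cannot be told apart.

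Csn2, beta-casein, varied most. In OP cancers its level was 8.33 at the lowest, 14.21 at the median and 16.29 at the highest. It was 17.08, 8.07 and 8.12 in OR cancers 1 to 3, and 17.04, 8.20 and 14.49 in LC cancers 1 to 3. Each of the 3 cancer groups thus held at least 1 array near 8 and at least 1 above 14. In normal tissue Csn2 was 12.07, 8.74 and 14.45 in OP, 8.67 and 11.46 in OR, and 7.49, 15.29 and 10.22 in LC samples. The ranges of cancers (8.07 to 17.08) and normal tissues (7.49 to 15.29) overlapped nearly throughout.

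The 12 cancers fell into separate sets on Csn2. In 5 of them (OP cancers 1 and 6, OR cancers 2 and 3, and LC cancer 2) the level lay between 8.07 and 9.28, and in the other 7 between 13.21 and 17.08. The gap between the sets was 3.93, and the next-largest gap between neighbouring cancers was 1.28. Both scan days and each of the 3 cancer groups held arrays of either set. The 8 normal tissues showed no such gap: their largest was 2.38 and their next 1.48.

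**Figure D1:**
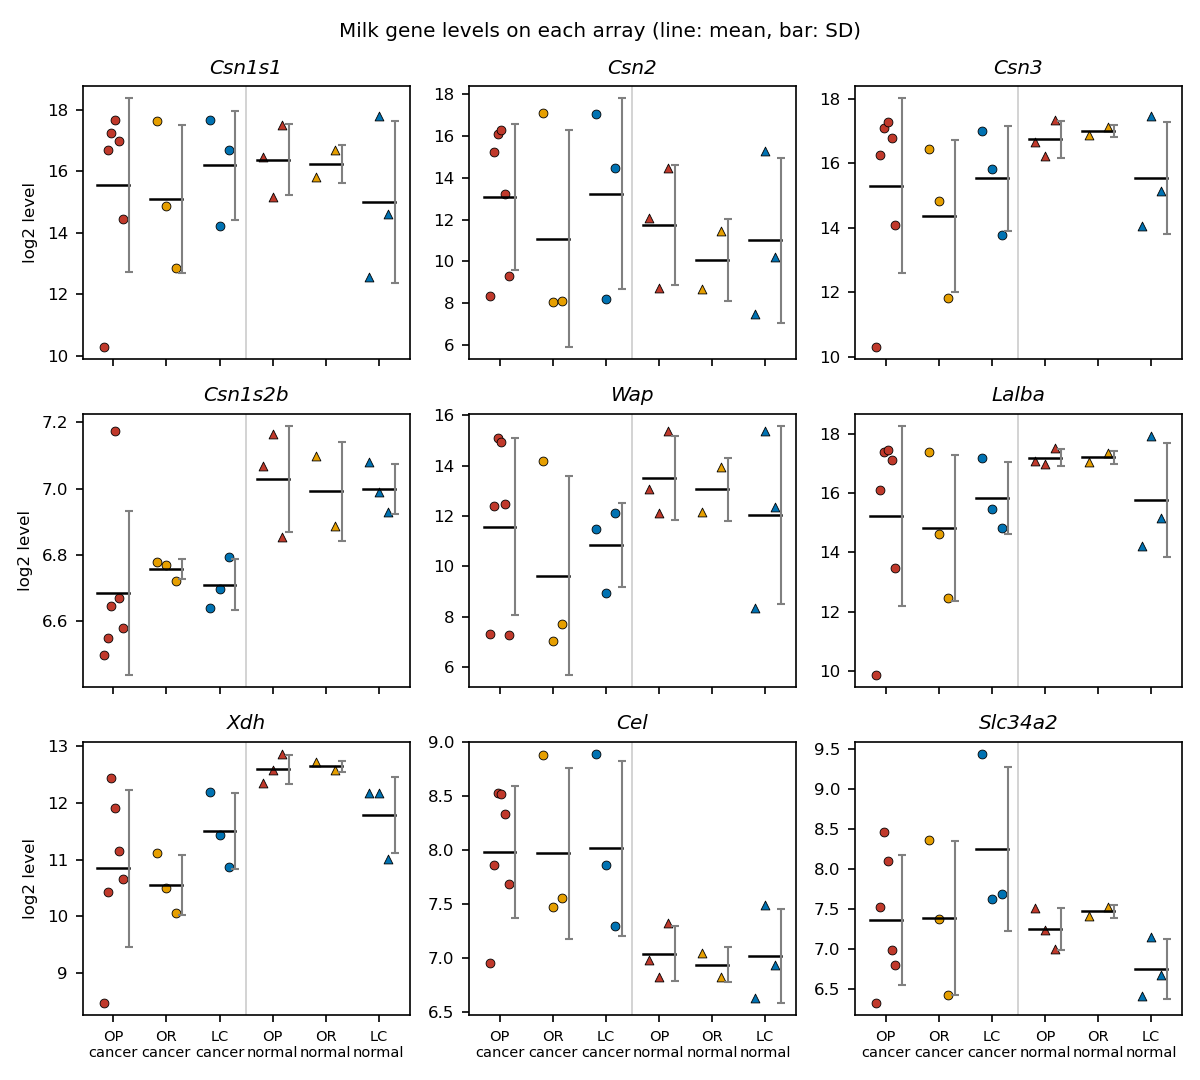
Log2 level of each of the 9 milk genes on every array, with a panel per gene and its own vertical axis; points are cancers (circles) and normal tissues (triangles) of OP, OR and LC rats, lines are group means and bars are SD. Csn2 in cancers lies either between 8.07 and 9.28 or between 13.21 and 17.08, while Cel lies between 6.96 and 8.89 in cancers and between 6.63 and 7.49 in normal tissue.

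Csn1s1, alpha-S1-casein, and Csn3, kappa-casein, were high in most samples of either tissue. Csn1s1 ranged from 10.28 through a median of 16.84 to 17.65 in OP cancers, was 17.62, 14.85 and 12.83 in OR cancers and 17.66, 14.21 and 16.69 in LC cancers. In normal tissue Csn1s1 was 16.46, 15.17 and 17.50 in OP, 15.80 and 16.68 in OR, and 12.55, 17.81 and 14.62 in LC samples. OP cancer 1 was the lowest of all 20 arrays, and LC normal 1 was the lowest normal tissue.

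For Csn3 the OP cancers ranged from 10.31 through 16.52 (median) to 17.28, the OR cancers were at 16.43, 14.84 and 11.82, and the LC cancers at 16.99, 15.82 and 13.77. The normal tissues had Csn3 levels of 16.66, 16.22 and 17.34 in OP, 16.88 and 17.13 in OR, and 14.06, 17.45 and 15.13 in LC samples. The lowest values were again those of OP cancer 1 among cancers and LC normal 1 among normal tissues. In OR rats every cancer was below both normal tissues.

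Csn1s2b, an alpha-S2-like casein, stayed near background on its only probe, unlike the other caseins tested. A weak probe and low expression of Csn1s2b cannot be told apart here. Its probe was well above background on 1 of 6 OP cancers, 2 of 3 OR cancers and 0 of 3 LC cancers, against 8 of 8 normal tissues. Levels ran from 6.50 to 7.17 in cancers and from 6.85 to 7.16 in normal tissue. The highest cancer value was that of OP cancer 4, and the other 11 cancers were below 6.80.

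Among the whey proteins, Wap followed Csn2 in its width. In OP cancers Wap was 7.27 at the lowest, 12.43 at the median and 15.09 at the highest, in OR cancers 14.18, 7.03 and 7.69, and in LC cancers 11.48, 8.95 and 12.13. Normal tissue had Wap levels of 13.08, 12.12 and 15.38 in OP, 12.18 and 13.95 in OR, and 8.34, 15.39 and 12.38 in LC samples. The 5 cancers with Wap under 9 were the same 5 arrays that had Csn2 under 9.3. In normal tissue only LC normal 1 was that low, and it also had the lowest Csn2 (7.49). Csn1s1 was lowest on the same 5 cancers too, but none of the other milk genes was. LC cancer 3, with high Csn2, had less Csn3 (13.77) than LC cancer 2 (15.82), with low Csn2.

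Lalba was high in nearly all normal tissues and uneven in cancers. Its level in OP cancers ran from 9.87 through a median of 16.61 to 17.46, and it was 17.38, 14.62 and 12.47 in OR and 17.19, 15.45 and 14.83 in LC cancers. In normal tissue it was 17.09, 16.98 and 17.51 in OP, 17.05 and 17.34 in OR, and 14.22, 17.91 and 15.17 in LC samples. The OP and OR cancers thus lay between 9.87 and 17.46, and the OP and OR normal tissues between 16.98 and 17.51.

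**Figure D2:**
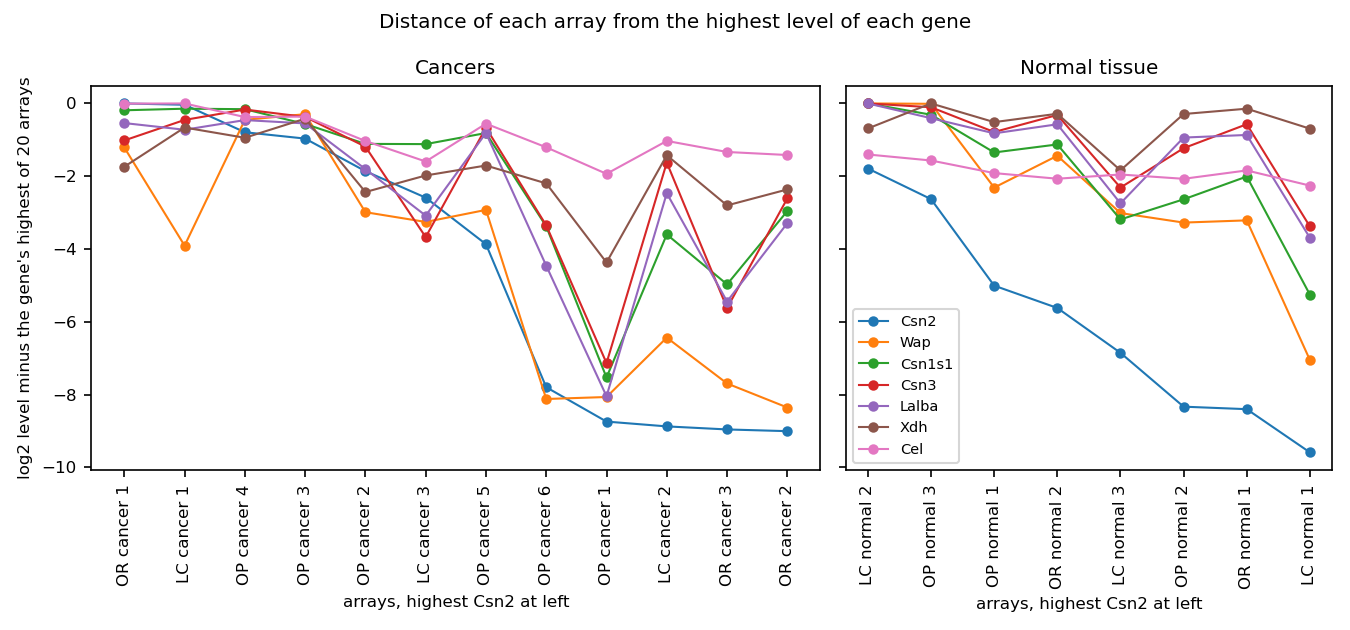
Distance of each array from the highest level that the gene reached on any of the 20 arrays (log2), for 7 milk genes, with arrays ordered by Csn2 from left to right in cancers and in normal tissues; each line is a gene. Csn2 and Wap drop together in the last 5 cancers, Csn1s1, Csn3 and Lalba drop less in LC cancer 2 and OR cancer 2 than in OP cancer 1, and Cel changes least.

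The enzymes were less variable. Xdh, xanthine oxidoreductase, breaks down purines and also coats the milk fat globule. Its level ranged from 8.49 through 10.91 (median) to 12.44 in OP cancers and was 11.12, 10.49 and 10.05 in OR and 12.20, 11.43 and 10.88 in LC cancers. The normal tissues had Xdh levels of 12.34, 12.57 and 12.86 in OP, 12.71 and 12.57 in OR, and 12.16, 12.17 and 11.02 in LC samples. Only OP cancer 3 (12.44) was above the lowest OP or OR normal tissue, and LC normal 3 (11.02) was the lowest normal tissue.

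Cel, the bile salt-stimulated lipase that the pancreas and the lactating gland of several species secrete, was higher in most cancers. OP cancers had Cel levels from 6.96 through 8.10 (median) to 8.53, OR cancers 8.89, 7.47 and 7.56, and LC cancers 8.89, 7.86 and 7.29. In normal tissue the level was 6.98, 6.82 and 7.32 in OP, 7.05 and 6.82 in OR, and 6.63, 7.49 and 6.94 in LC samples. OP cancer 1, LC cancer 3 and OR cancer 2 were the cancers that fell within the range of normal tissue.

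Slc34a2, a sodium-dependent phosphate transporter of lung, gut and lactating gland, gave different answers with its 2 probes. The probe used in the tests, the brighter by a narrow margin of its mean over the 20 arrays (7.41 against 7.40), read 6.34 at the lowest, 7.26 at the median and 8.46 at the highest in OP cancers, 8.37, 7.38 and 6.44 in OR cancers and 9.44, 7.63 and 7.70 in LC cancers. On the same probe the normal tissues read 7.52, 7.24 and 7.00 in OP, 7.42 and 7.54 in OR, and 6.42, 7.16 and 6.68 in LC samples. The second probe ran from 6.67 to 7.87 in cancers and from 7.26 to 8.32 in normal tissue. The first probe was above the second on 10 of 12 cancers and on 0 of 8 normal tissues, so the relation of the probes changed with the tissue, and no direction is given for the gene.

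The spread between samples of a group was wide for the caseins other than Csn1s2b and for the whey proteins. The pooled within-group SD in cancers was 4.17 (log2) for Csn2, 3.31 for Wap, 2.60 for Lalba, 2.53 for Csn1s1 and 2.42 for Csn3, against a median of 0.17 over all 36043 genes. Csn2 ranked 3 and Wap 6 of all genes by this SD. It was 1.11 for Xdh, 0.90 for Slc34a2, 0.70 for Cel and 0.19 for Csn1s2b, the last near the median gene. Since wide variation was known when these genes were picked, their ranks are a description.

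In normal tissue Csn2 and Wap again varied most, and the values of all 5 genes were smaller. The within-group SD there was 3.21 for Csn2, 2.54 for Wap, 1.85 for Csn1s1, 1.23 for Lalba and 1.15 for Csn3, against a median of 0.21. From the lowest to the highest sample, Csn2 spanned 514-fold over the cancers and 223-fold over the normal tissues. For Wap the span was 267-fold and 133-fold, for Csn1s1 167-fold and 38.2-fold, for Lalba 193-fold and 12.9-fold, and for Csn3 125-fold and 10.4-fold. Whether the spread itself differs between cancers and normal tissue was not tested.

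**Figure D3:**
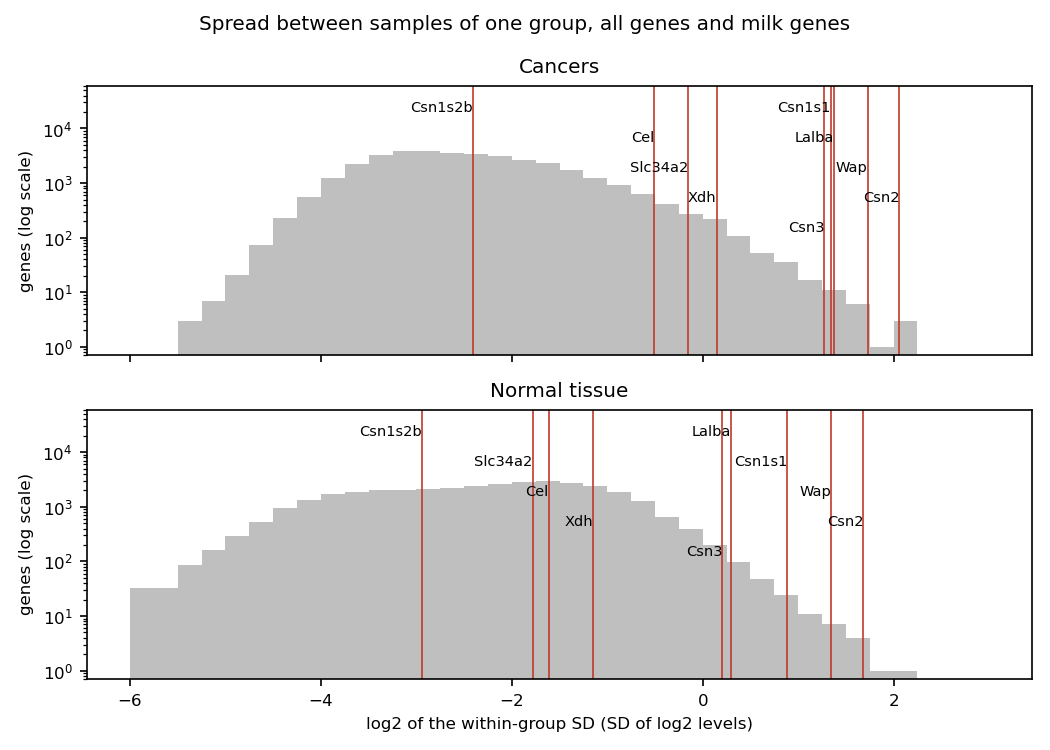
Number of genes (log scale) at each within-group SD (log2 of the SD of log2 levels) in cancers and in normal tissues, with a red line at each milk gene. In cancers Csn2 (SD 4.17), Wap (3.31), Lalba (2.60), Csn1s1 (2.53) and Csn3 (2.42) stand at the far right, and Csn1s2b (0.19) stands in the bulk of the genes.

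Whether the milk genes moved together with Csn2 was examined across samples, separately in each tissue, with 8 relations per tissue. No r over all 12 cancers is given as a relation, because the cancers lie in separate sets. Within the 7 cancers with Csn2 above 13, 0 of the 8 relations passed after Benjamini-Hochberg adjustment of two-sided exact permutation p-values, by Pearson's r or by rank, and 2 by Pearson's r and 3 by rank had an unadjusted p under 0.05. The highest Pearson's r was that of Slc34a2 (r = 0.87, exact permutation p = 0.0117, adjusted p = 0.0937, n = 7), with rho = 0.79 and a Spearman's p of 0.048 before and 0.128 after adjustment. By rank Cel was highest (rho = 0.82, exact permutation p = 0.0341, adjusted p = 0.128, n = 7). Leaving out the 2 cancers farthest from the median would keep 5, too few for a correlation, and the set with Csn2 below 9.3 also holds 5.

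Across the 8 normal tissues, 3 of the 8 relations passed. Wap rose with Csn2 (r = 0.90, exact permutation p = 0.000744, adjusted p = 0.00595; rho = 0.95, exact permutation p = 0.00114, adjusted p = 0.00913). The same held for Csn1s1 (r = 0.87, exact permutation p = 0.0036, adjusted p = 0.0144; rho = 0.88, adjusted p = 0.0193) and by Pearson's r for Cel (r = 0.86, exact permutation p = 0.00642, adjusted p = 0.0171; rho = 0.74, adjusted p = 0.0733). Csn3 (r = 0.72, adjusted p = 0.0825) and Lalba (r = 0.69, adjusted p = 0.0881) did not pass by Pearson's r, although Lalba passed by rank (rho = 0.88, exact permutation adjusted p = 0.0193). Csn1s2b had r = -0.62 and an exact permutation adjusted p of 0.141. The relation of Cel depended on the scaling. With arrays scaled to their 75th percentile, its r was 0.40 on the processed signal and 0.60 after normexp (exact permutation adjusted p = 0.375 and 0.190). In the authors' deposited table it was 0.43 (exact permutation adjusted p = 0.291). Wap and Csn1s1 passed in each of these settings, and Csn3 and Lalba passed in that table (exact permutation adjusted p = 0.0385 each).

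These relations rested on few samples. Without LC normal 2 and OP normal 3, the samples farthest from the median of Csn2, r was 0.82 for Wap (exact permutation p = 0.0167, adjusted p = 0.133, n = 6), 0.78 for Csn1s1 (exact permutation p = 0.0556, adjusted p = 0.222) and 0.45 for Cel (exact permutation p = 0.371, adjusted p = 0.424), and 0 of 8 passed. The mean of 9 luminal epithelial markers was 10.07 in LC normal 1 and 10.80 in LC normal 3, against 12.06 to 12.42 in the other 6 normal tissues, and its part in these relations was not tested. All normal tissues had been read on 1 scan day and lay on 3 slides. Pooled within slides, after each slide's mean was taken off, r was 0.94 for Wap, 0.89 for Csn1s1 and 0.92 for Cel (exact permutation within slides p = 0.0278, 0.0278 and 0.0556, adjusted p = 0.0556, 0.0556 and 0.0889, n = 8), and 0 of 8 relations passed. Within slides r was -0.84 for Csn1s2b and 0.75 for Lalba (exact permutation adjusted p = 0.0556 each). The 72 arrangements within slides allow no p under 0.0139.

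The comparison of cancer with normal tissue, over all 3 obesity groups weighted equally, asks which genes the cancers express more or less than the gland. Of the 9 milk genes, 1 rose and 2 fell at a limma adjusted p under 0.05, that is 3 of 9, whereas 62.4% of all 36043 genes tested were called (29% higher and 33.5% lower). For 0 of 9 milk genes were all cancers on one side of all normal tissues, against 20.2% of all genes. The SEs of the milk genes had a median of 0.90, against 0.10 over all genes. Their median difference was -0.29, beside -0.03 over all genes.

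Cel was higher in cancers by 0.99 (log2, SE 0.262, 1.99-fold, limma adjusted p = 0.00362), with cancers at 7.99 ± 0.63 (SD, n = 12) and normal tissues at 7.01 ± 0.28 (n = 8). In normal tissue Cel was as dim as Csn1s2b (mean 7.01 each), though well above background on all 8 arrays. The differences of Cel on slides 1, 2 and 3, which held both tissues, were 1.12, 0.74 and 1.86. With arrays scaled to their 75th percentile, the difference of Cel shrank to 0.36 on the processed signal and 0.17 after normexp, and neither passed (limma adjusted p = 0.476 and 0.591). The median of all genes, cancer minus normal, was -1.51 and -0.80 under those scalings and -0.03 under quantile normalization, so Cel lay above the median gene under each of them.

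Xdh fell by 1.37 in cancers (SE 0.407, limma adjusted p = 0.00776), with 10.94 ± 1.06 in cancers and 12.30 ± 0.57 in normal tissue (SD, n = 12 and n = 8). Its difference was -1.91, -2.06 and -1.03 within slides 1, 2 and 3, and it was called in each of the alternatives tried, from -1.14 to -1.75. Xdh lay below the all-gene median under quantile normalization, but above it (-1.20 against -1.51) on the processed signal scaled to the 75th percentile.

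Csn1s2b fell by 0.29 (SE 0.0801, limma adjusted p = 0.00505), with 6.71 ± 0.17 in cancers and 7.01 ± 0.11 in normal tissue (SD, n = 12 and n = 8). Of the cancers 3 of 12 had a signal well above background, so this difference compares a measured level with one at the limit of detection. Its size moved most under 75th percentile scaling (-3.30 on the processed signal and -1.32 after normexp), where the all-gene median also moved to -1.51 and -0.80. Under quantile normalization it was -0.43 with a normexp offset of 16 and -0.32 without background correction. Within slides 1, 2 and 3 it was -0.50, -0.54 and -0.11. Without OP cancer 4 it was -0.32 (limma adjusted p = 8.47e-05).

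For the abundant caseins and whey proteins no difference between cancer and normal tissue passed, and the intervals were wide. Csn2 averaged 12.62 ± 3.88 in cancers and 11.05 ± 2.80 in normal tissue (SD, n = 12 and n = 8), and the fitted difference was 1.53 (SE 1.69, 95% interval -2.04 to 5.10, limma adjusted p = 0.448). The interval of Csn1s1 ran from -2.40 to 1.88 around -0.26, that of Csn3 from -3.28 to 0.54 around -1.37, that of Wap from -5.02 to 0.65 around -2.18, and that of Lalba from -3.48 to 0.62 around -1.43. Differences of several-fold in either direction were therefore not resolved for Csn2 and Csn1s1.

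Csn2 differed more between the tissues with slide in the fit. Its differences within slides 1, 2 and 3 were 2.91, 4.31 and 5.03, based on 2, 1 and 1 cancers against 2, 3 and 3 normal tissues, and with slide as a block the fitted difference was 5.31 (limma adjusted p = 0.0358). Slides 4 and 5 held cancers only, among them 4 of the 5 arrays with Csn2 below 9.3. An effect of the slide and the placing of cancers on slides therefore cannot be told apart. With scan day as a block the difference was 3.33 (limma adjusted p = 0.214). Wap differed by -1.31, -0.83 and 0.28 on those slides and Lalba by -2.13, -1.20 and 0.70, so these differences did not keep 1 sign.

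The Slc34a2 probe used in the tests was 0.51 higher in cancers (SE 0.326, limma adjusted p = 0.183), and the second probe fell by 0.70 (SE 0.139, limma adjusted p = 0.00035). With slide as a block the first probe passed at 1.18 (limma adjusted p = 0.0126). Under 75th percentile scaling its sign turned (-0.71 on the processed signal and -0.33 after normexp), and neither passed.

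**Figure D4:**
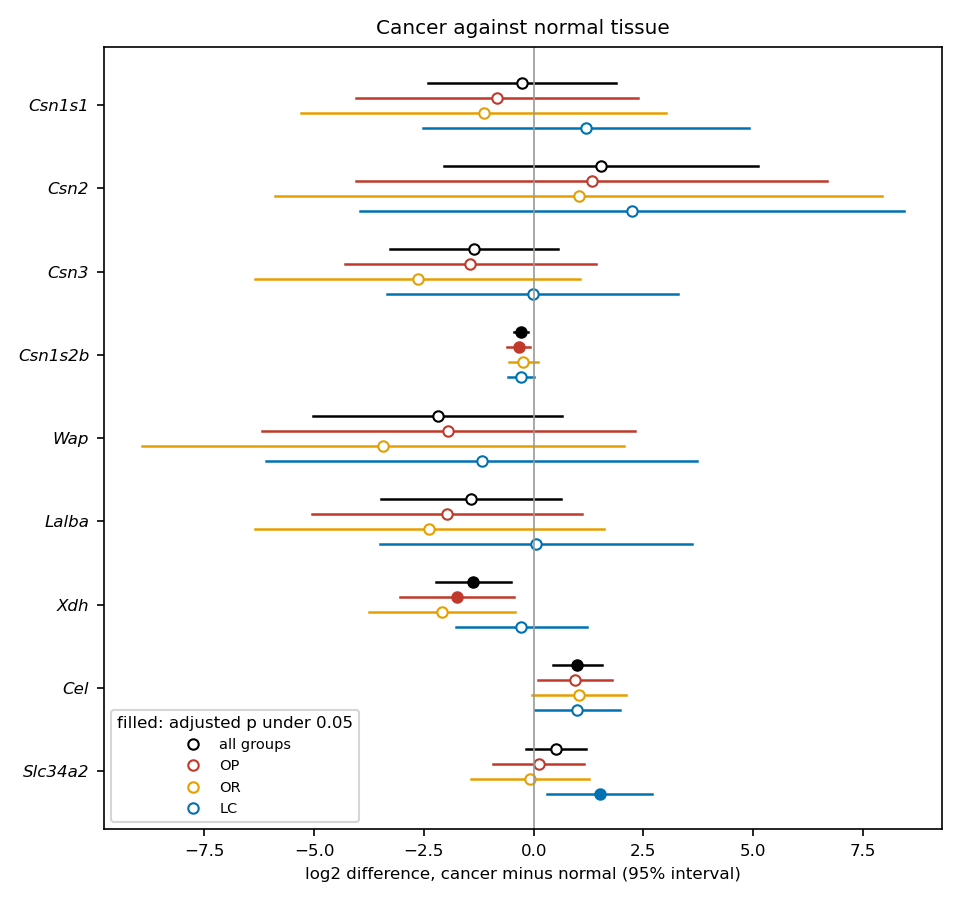
Fitted log2 difference, cancer minus normal, of each milk gene over all groups and within OP, OR and LC rats; bars are 95% intervals and filled points have an adjusted p under 0.05. Cel (0.99), Csn1s2b (-0.29) and Xdh (-1.37) are filled over all groups, and the intervals of Csn2, Wap, Lalba, Csn1s1 and Csn3 span several units.

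Within OP rats, 2 of 9 milk genes were called, both lower in cancers, against 44.6% of all genes (21.2% higher and 23.4% lower). Xdh fell by 1.74 (SE 0.610, limma adjusted p = 0.0289) and Csn1s2b by 0.34 (SE 0.120, limma adjusted p = 0.0296). Both calls ended on leaving out OP normal 1 or OP normal 2 (limma adjusted p = 0.056 and 0.0797 for Xdh, 0.0915 and 0.149 for Csn1s2b), that of Xdh also without OP normal 3 (0.089), and that of Csn1s2b also without OP cancer 1 (0.055) or OP cancer 2 (0.054). Cel differed by 0.94 and missed the threshold (limma adjusted p = 0.0625), but passed without OP cancer 1 (1.15, 0.0191), OR cancer 1 (0.0414) or LC cancer 1 (0.0442). With slide as a block Lalba passed as well, at -4.10 (limma adjusted p = 0.038), against -1.97 without it (0.288). The second Slc34a2 probe was called in OP rats at -0.88 (limma adjusted p = 0.00308), while the first was not. OP cancers and OP normal tissues overlapped for all 9 milk genes, while 42.1% of all genes did not overlap.

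Within OR rats, 0 of 9 milk genes were called by limma, against 28.4% of all genes. Xdh (-2.09) and no other milk gene had an unadjusted p under 0.05, and its adjusted p was 0.0578. OR cancers did not overlap OR normal tissues for Csn3, Csn1s2b, Xdh and Cel, 4 of 9, and 64.5% of all genes did not overlap in this contrast of 3 with 2 samples. The second Slc34a2 probe was called in OR rats at -0.98 (limma adjusted p = 0.0133), while the first differed by -0.08 (0.938). Xdh passed without OP cancer 1 (limma adjusted p = 0.0106) or OP cancer 3 (0.0381), which share the estimate of the spread.

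Within LC rats, 1 of 9 milk genes was called, higher in cancers, against 43.6% of all genes (19.9% higher and 23.7% lower). That was Slc34a2, with a difference of 1.50 (SE 0.564, limma adjusted p = 0.0405) on the first probe and -0.25 (SE 0.240, limma adjusted p = 0.421) on the second. The call ended without LC cancer 1 (0.91, limma adjusted p = 0.218), LC normal 1 (1.34, 0.117) or LC normal 3 (1.47, 0.0775). It also ended under both 75th percentile scalings (limma adjusted p = 0.36 on the processed signal and 0.318 after normexp) and under the replicate block (0.0745), and in these 3 settings Csn1s2b was the LC gene called. Csn1s2b also passed in LC rats without OP cancer 4 (limma adjusted p = 0.0177), and Cel passed there without LC cancer 3 (1.36, 0.0373) and with slide as a block (2.06, 0.000788). Csn1s2b was not well above background on any LC cancer. Its measured level there was 1.22-fold lower than in LC normal tissue, a difference that did not pass (log2 95% interval -0.58 to 0.005, limma adjusted p = 0.103). LC cancers and LC normal tissues did not overlap for Csn1s2b and Slc34a2, 2 of 9, beside 51% of all genes.

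Whether the tissue difference itself varied with the obesity group was tested by an interaction. It passed for 0 of 9 milk genes and for 0% of all genes by limma, with 2534 genes at an unadjusted p under 0.05. The smallest unadjusted p of a milk gene was 0.13, for Slc34a2, and the adjusted p-values of the 9 ranged from 0.835 to 0.999.

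Among cancers, OP against OR, OP against LC and OR against LC each gave 0 of 9 milk genes by limma and 0% of all genes, with 3926, 2599 and 1510 genes at an unadjusted p under 0.05. Csn2 averaged 13.07 ± 3.49 in OP (SD, n = 6), 11.09 ± 5.19 in OR and 13.24 ± 4.55 in LC cancers (n = 3 each). The OP minus OR difference of Csn2 was 1.98 with a 95% interval from -3.83 to 7.79, the OP minus LC difference -0.17 (-5.98 to 5.64) and the OR minus LC difference -2.15 (-8.86 to 4.55). With slide as a block these were -5.46, -8.71 and -3.25 (limma adjusted p = 0.82 for the last). The OP minus OR difference thus turned its sign, and the first 2 left the intervals given. OP and LC cancers shared only slide 1, with 1 array each, so -8.71 set 1 array against 1. OR and LC cancers shared only slide 5, with 2 arrays each. OP and OR cancers shared no slide, so -5.46 was joined from the other 2 differences. Leaving out 1 cancer moved OP minus OR between 0.47 (without OR cancer 2) and 4.98 (without OR cancer 1), OP minus LC between -2.69 (without LC cancer 2) and 1.73 (without LC cancer 1), and OR minus LC between -5.15 (without OR cancer 1) and -0.26 (without LC cancer 1). Each pair of cancer groups overlapped for 9 of 9 milk genes, while 5.13% of all genes did not overlap between OP and OR, 3.57% between OP and LC, and 11.5% between OR and LC cancers. Cel had means of 7.98 ± 0.61 in OP, 7.97 ± 0.79 in OR and 8.02 ± 0.81 in LC cancers, and an OP minus LC interval from -1.02 to 0.95.

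Ordered by mean level, Csn2 ran from LC cancers (13.24) over OP cancers (13.07), OP normal (11.75), OR cancers (11.09) and LC normal (11.00) to OR normal tissue (10.06), and no neighbours in that order differed by more than their SDs. For Xdh the order was OR normal (12.64), OP normal (12.59), LC normal (11.78), LC cancers (11.50), OP cancers (10.85) and OR cancers (10.56). The step from OP normal to LC normal tissue in Xdh was the only one in which neighbouring groups did not overlap.

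Among normal tissues 0 of 9 milk genes and 0% of all genes were called by limma in each of the 3 comparisons, with 221 (OP against OR), 3177 (OP against LC) and 3235 (OR against LC) genes at an unadjusted p under 0.05. OP normal tissue was above LC normal tissue in the mean of each of the 9 genes, with Xdh 0.81 higher (95% interval 0.03 to 1.58) and not overlapping, while 13.4% of all genes did not overlap. These differences rested on single samples: without LC normal 3 that of Xdh was 0.42, and without LC normal 1 the OP minus LC differences of Csn2, Wap and Cel were -1.002, -0.36 and -0.17, so the direction shared by 9 genes was lost. Without OP normal 3 those of Csn2 and Cel were -0.59 and -0.12. OR normal tissue lay above LC normal tissue without overlap for Xdh (0.86) and Slc34a2 (0.73), 2 of 9, beside 23.1% of all genes. LC normal 1 and LC normal 3, the samples with the lowest luminal marker means, held the lowest Csn3 and Lalba levels of normal tissue. The same held for Csn1s1, Xdh and the first Slc34a2 probe, but not for Csn2, Wap, Cel and Csn1s2b. Csn2 in LC normal 3 (10.22) was above that in OP normal 2 (8.74) and OR normal 1 (8.67). The part of epithelial content in these differences was not tested.

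Other genes of lactation were taken from a list of 37, of which 27 were tested. In cancers 8 of the 27 rose and 7 fell against normal tissue, and the median difference was 0.14, beside 62.4% of all genes called (29% higher and 33.5% lower) and an all-gene median of -0.03. In the pathway that drives the caseins, the prolactin receptor Prlr rose by 1.17 (SE 0.274, limma adjusted p = 0.00147) and Stat5b by 1.04 (SE 0.175, limma adjusted p = 8.77e-05). Stat5a differed by 0.36 (SE 0.350, limma adjusted p = 0.381) and Jak2 by 0.29 (SE 0.224, limma adjusted p = 0.269), and neither passed. The glucocorticoid receptor Nr3c1 fell by 0.37 (SE 0.138, limma adjusted p = 0.0302). Elf5, a transcription factor of alveolar cells, and Btn1a1 and Plin2, proteins of the milk fat globule, were not analysed here.

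Of the list's genes for milk fat, Lpl, the lipase that releases fatty acids from blood lipids, fell by 3.36 (SE 0.191, limma adjusted p = 1.75e-09), with 8.31 to 9.62 in cancers and 11.88 to 13.05 in normal tissue. Cd36, a fatty acid receptor, fell by 2.44, with 6.81 to 8.37 in cancers and 9.70 to 10.26 in normal tissue (limma adjusted p = 3.31e-08). Fat cells express both, and 9 of 9 tested adipocyte markers, which include them, fell, with marker means of 7.06 to 7.49 in cancers and 11.56 to 12.47 in normal tissue. The part of fat cells in the fall of Lpl and Cd36 was not tested.

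Among genes that supply the alveolar cell, the glucose transporter Slc2a1 rose by 1.40 and the kinase Akt1 by 1.45, and the Golgi calcium pump Atp2c1 rose by 0.64 (limma adjusted p = 3.24e-05, 1.11e-05 and 0.00165). Spp1, osteopontin, which is also abundant in milk, rose by 3.05 (SE 0.478, limma adjusted p = 4.17e-05). The folate receptor Folr1 fell by 1.37, Tf, transferrin, by 1.28, Id2 by 0.47 and Ugp2 by 0.33. No gene of the list was called between cancers of different obesity groups by limma. Luminal epithelial markers rose in 9 of 9 tested genes, so the higher Prlr and Stat5b came together with a higher luminal marker level, and its part in them was not tested.

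Genes whose level followed that of Csn2 most closely were ranked by Pearson's r over arrays among 8653 genes with a symbol. Over the 12 cancers they were Fabp3 (r = 0.97), Glycam1 (0.95), Aqp2 (0.95), Acsl1 (0.93), Thrsp (0.92), St6galnac3 (0.91), Pdzk1ip1 (0.90) and Slc28a3 (0.89). These values rank genes over arrays that lie in separate sets on Csn2 and share slides, and they are not a relation within either set. Fabp3 binds fatty acids, Acsl1 activates them and Thrsp is a regulator of their synthesis, while Glycam1 is a mucin-like protein secreted into milk.

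Glycam1 was uneven as well. Its level was 10.08, 16.16, 15.10, 17.95, 15.20 and 7.34 in OP cancers 1 to 6, 16.61, 7.85 and 6.99 in OR cancers and 16.97, 7.97 and 16.47 in LC cancers. The 5 cancers under 10.1 were those with Csn2 below 9.3. Normal tissue ranged from 7.24 to 18.26, and the difference between the tissues was -2.32 (SE 1.96, limma adjusted p = 0.317). Fabp3 was 8.07, 10.07, 9.84, 10.86, 9.60 and 8.42 in OP, 11.11, 7.95 and 8.25 in OR and 10.48, 7.96 and 9.51 in LC cancers, with the same 5 arrays lowest. Both genes lead the ranking by r to Csn2 over these same cancers, so this match is not a separate result.

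Over the 8 normal tissues the leading genes included Ephx2 (r = 0.98), Arl1 (0.97), Fzd3 (0.96), Mt1 (0.95), Spin1 (0.95), Drd4 (0.94) and Cdh16 (0.94). With 8 arrays and 8653 genes, high values of r are reached by many genes, and none of these names was on the list over cancers. Of these genes Mt1, a metallothionein, spanned the widest range of level, 12.30 to 16.33.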

How the data were processed

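Total RNA of 20 tissues was labelled with Cy3 and hybridised to 1-colour arrays. Spot and background brightness are given as intensity per the file headers, and quality flags as other values (0 or 1). Feature Extraction is version 10.7.3.1 per the submitters' processing notes and 9.5.1.1 per the file headers. The value table that the authors deposited is on a log2 scale. Set against the scanner values, it matched the processed signal scaled to each array's 75th percentile and centred per probe (20793 probes). RMA and GeneSpring GX 12 are named in the design text, but that table shows no quantile step.

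Median spot and background signals, used in place of the mean signal the plan had assumed, were corrected by normexp (offset 50) and quantile-normalized in limma 3.58.1 (R 4.3.3). Of 41012 probes, 115 with outlier marks and 825 that were dim were left out. A probe was dim if it was well above background on fewer than 0.5 of the arrays of every group. The brightest probe of a gene was kept, which gave 36043 genes, of which 8662 had a symbol. Of 13948 RefSeq accessions on the array 8991 matched the RefSeq table.

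All 20 arrays were fitted together for cancer against normal tissue (14 residual degrees of freedom), cancers alone (9) and normal tissues alone (5) otherwise. The Benjamini-Hochberg adjustment ran over all genes tested, and an adjusted p under 0.05 was a call. The fit was checked on simulated data. Arrays give no counts, so their number limits the precision.

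All milk genes with a probe are named. Of the 37 other lactation genes, the 6 smallest p in each direction among those called are named, with Prlr, Stat5a, Stat5b, Elf5, Btn1a1 and Plin2. Nr3c1, Jak2, Glycam1 and Dzip1-ps1 were named after their values were seen. The 8 genes most like Csn2 were taken in each tissue, and the result of 1 of them is not reported here. The members and lists were chosen with earlier results of these data known. Marker lists were those of luminal epithelium, myoepithelium, adipocytes, fibroblasts, endothelium, macrophages, T and NK cells, and skeletal muscle. Alternatives varied the scaling, background, filter, probe, slide, scan day, replicate block, weights and samples.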

Additional observations from a re-analysis of the deposited data

Results flagged for a closer look

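Csn1s2b in OP cancer 4 stood apart from the other 5 OP cancers. Its level was 7.17 against 6.67 in the nearest of them, a gap of 0.745 of the range of the group, above the critical value of 0.625 for 6 samples. It was also the only OP cancer with the probe well above background. Without it, the difference of Csn1s2b between cancer and normal tissue was -0.32 (limma adjusted p = 8.47e-05). For each gene about 1 in 20 such groups would show such a sample by chance, and all 9 milk genes were looked at.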

How the results depend on the processing

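With the second Slc34a2 probe, an alternative chosen after seeing the data, the cancer minus normal difference turned to -0.70 over all groups, -0.88 in OP and -0.25 in LC rats, and was -0.98 in OR rats (calls over all groups, in OP and in OR). The other settings (15 in all) turned no called value of a milk gene: 1268 of 1292 values kept their side of the threshold, 9 lost it and 15 gained it, and 64 uncalled values turned their sign, as did 88 of 1440 on leaving out single samples. Counts of called milk genes moved as follows. Over all groups (3) slide as a block gave 5, and the authors' deposited table gave 1. That table held 7 of the genes, without Csn1s2b and Slc34a2, so neither could be called there. In OP rats (2) that table and the replicate block gave 1 each, and slide (with Lalba) and a normexp offset of 16 (with Cel) gave 3 each. In OR rats (0) the processed signal scaled to the 75th percentile, slide, scan day and array weights gave 1 each, and normexp with that scaling gave 2. In LC rats (1) that table, the mean of a gene's probes and array weights gave 0, and slide gave 3, while both 75th percentile scalings and the replicate block called Csn1s2b in place of Slc34a2. Leaving out single samples gave 0 to 3 calls in OP, 0 to 1 in OR and 0 to 2 in LC rats. For relations with Csn2, the processed signal gave 1 over cancers (main 0), and dropping the farthest samples, or pooling within slides (chosen after seeing the data), gave 0 over normal tissues (main 3). Over normal tissues both 75th percentile scalings gave 2, without Cel. The authors' deposited table gave 4 of 6, with Csn3 and Lalba and without Cel. The causes were not tested. The share of all calls that were higher in cancers was 46.4%, and 17.7%, 17.3% and 39.4% under the processed signal, normexp with the 75th percentile and the authors' deposited table. Of 24 pairs of samples with the same replicate number, 3 had deviations correlated above 0.1 (range -0.35 to 0.28). Some of these pairs joined different obesity groups, and the correlations cannot show whether samples with the same number belong together. Xdh in OP rats had an adjusted p of 0.0569 in limma with the replicate block. Scan day could not be a block within normal tissue, read on 1 day. Signal near background limits Csn1s2b and Slc34a2, and also Cel in normal tissue, where its mean level was that of Csn1s2b (7.01).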

Other observations

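Among the cell type markers, 9 of 9 luminal genes rose in cancers, 2 of 5 myoepithelial genes rose and 2 fell, and 5 of 6 fibroblast, 3 of 3 endothelial, 2 of 5 macrophage and 1 of 4 skeletal muscle genes fell. Of the T and NK cell genes 1 of 5 rose and 1 fell. Over all genes 29% were called higher and 33.5% lower in cancers. Fibroblast marker means ran from 12.55 to 15.38 in cancers and from 14.32 to 15.63 in normal tissue. OP cancer 6, with Csn2 at 9.28, had the highest fibroblast (15.38), macrophage (13.00), endothelial (10.23), T and NK cell (9.91) and skeletal muscle (11.00) means of the cancers. The other 4 cancers with Csn2 below 9.3 had fibroblast means of 12.97 (OP cancer 1), 13.69 (OR cancer 2), 13.83 (OR cancer 3) and 13.67 (LC cancer 2).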
